A study of Mus musculus with 6 samples.

Results

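The genes in question encode 10 members of the Sox family in mouse: Sox2, Sox4, Sox5, Sox6, Sox8, Sox9, Sox11, Sox12, Sox13 and Sox18. Every probe set that the probe table pairs with exactly 1 of these symbols was taken, dim ones included. That gave 35 of the 45037 probe sets that are not controls: 8 for Sox4, 7 for Sox5, 6 for Sox11, 4 for Sox6, 3 each for Sox9 and Sox12, and 1 each for Sox2, Sox8, Sox13 and Sox18. RNA came from GC1-Spg, an established mouse line of spermatogonial origin immortalized with a viral T antigen, so both groups are a single cultured line and not testis tissue. One group of 3 arrays received siRNA against mrhl, a nuclear noncoding RNA, and the other group of 3 received scrambled siRNA. Both were given 100 nM and harvested at 44 h, and untransfected cells were not analysed here.

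Sox proteins bind DNA through a high mobility group box related to that of the sex-determining factor Sry, and are divided by sequence into lettered groups. Sox2 belongs to group B1, Sox4, Sox11 and Sox12 to group C, Sox5, Sox6 and Sox13 to group D, Sox8 and Sox9 to group E, and Sox18 to group F. In the testis Sox9 is best known from Sertoli cells, where it acts downstream of Sry and where Sox8 partly shares its role. Several Sox proteins modify Wnt signalling, either through beta-catenin or through competition with TCF/LEF factors. Sox8 has also been described in mouse spermatogonial cells as a gene held down by mrhl, and the comparison of mrhl siRNA with scrambled siRNA bears on its level and that of its relatives. The mrhl RNA itself was not read, because the probe table pairs no probe set with it.

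The promoters of Sox8, Sox12 and Sox4 are shown because these are the genes with a probe set whose values after mrhl siRNA all lay above those after scrambled siRNA. Each is the 250 bases before the annotated start, 5′ to 3′ on the gene's own strand, from RefSeq on GRCm38.p6, which holds an entry for 8 of the 10 genes. They lie on the minus strand at chr17:25570687-25570936 for Sox8, chr2:152398047-152398296 for Sox12 and chr13:28953700-28953949 for Sox4. Capitals mark matches to any of 4 motifs searched on both strands: the TCF/LEF motif ATCAAAG, the Sox core ACAAT, the GC box GGGCGG and the TATA box TATAAA.
Sox8: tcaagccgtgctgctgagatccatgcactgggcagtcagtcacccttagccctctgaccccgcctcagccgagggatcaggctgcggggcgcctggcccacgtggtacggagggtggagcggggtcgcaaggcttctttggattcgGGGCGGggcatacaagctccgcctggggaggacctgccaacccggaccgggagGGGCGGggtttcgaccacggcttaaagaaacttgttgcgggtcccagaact
Sox12: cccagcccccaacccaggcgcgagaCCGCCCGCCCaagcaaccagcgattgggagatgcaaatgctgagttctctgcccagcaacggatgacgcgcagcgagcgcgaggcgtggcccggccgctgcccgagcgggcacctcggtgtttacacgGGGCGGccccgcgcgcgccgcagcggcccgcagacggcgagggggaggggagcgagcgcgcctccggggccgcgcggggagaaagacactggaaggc
Sox4: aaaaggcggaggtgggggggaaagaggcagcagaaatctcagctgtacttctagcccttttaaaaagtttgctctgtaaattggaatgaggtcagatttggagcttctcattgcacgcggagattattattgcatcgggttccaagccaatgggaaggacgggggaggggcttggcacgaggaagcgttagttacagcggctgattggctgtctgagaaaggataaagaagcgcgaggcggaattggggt
All matches in these windows were GC boxes, 2 in Sox8 and 3 in Sox12, of which the first pair in Sox12 overlap. The Sox4 window held none of the 4 motifs. A GC box stands in 32.7% of all 32851 promoter windows of this length, the Sox core in 27.7%, the TATA box in 12.4% and the TCF/LEF motif in 3.21%. The GC content was 65.6% in Sox8, 74.4% in Sox12 and 50.8% in Sox4, and the median window had 52.4%. The Sox8 window held 18 CpG dinucleotides, that of Sox12 held 35 and that of Sox4 held 11, where the median window held 6.

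Of the 35 Sox probe sets, 0 passed an adjusted p of 0.05 for mrhl siRNA against scrambled siRNA (limma, adjusted p from 0.978 to 0.998), and over all probe sets 0 passed (limma, smallest adjusted p = 0.279), so percent called was 0 for both. With the replicate number as a block, 0 Sox probe sets passed again (limma, adjusted p from 0.674 to 0.978). With the block and a trended and robust variance model 0 passed as well, against 0.00444% of all probe sets. At an unadjusted p under 0.05 stood 2 Sox probe sets, or 5.71%, 1 of Sox8 and 1 of Sox12 and both higher after mrhl siRNA, against 3.90% of all probe sets in either direction 1.53% in the higher direction and 2.38% in the lower. With the block there were 4, or 11.4%, against 7.20% of all probe sets, 2.76% higher and 4.43% lower; the 2 added were 1 of Sox4, higher, and 1 of Sox9, lower. The count of 2 became 7 without scrambled siRNA replicate 1 (7 of 35, against 4.57% of all probe sets) and 6 without scrambled siRNA replicate 3 (6 of 35, against 3.58%). It became 4, or 11.4%, on dropping replicate 1 or 3 of the mrhl siRNA group, against 3.67% of all probe sets without replicate 1 and 5.92% without replicate 3.

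The 2 groups did not overlap in 4 Sox probe sets, or 11.4%, against 8.77% of all probe sets. All 4 were higher after mrhl siRNA, where 2.96% of all probe sets were apart in that direction and 5.82% in the lower one. They belong to Sox8, Sox12 and, with a pair of probe sets, Sox4. Those of Sox8 and Sox12 lay under the 25th percentile of mean level. Below that level 4.09% of all probe sets were apart in the higher direction, against 2.58% at or above it. The 10 genes were chosen with earlier results of these data known, so the shares here describe the list and test nothing. Comparing arrays of equal replicate number, 11 Sox probe sets, or 31.4%, were higher after mrhl siRNA in 3 of 3 pairs, against 13.5% of all probe sets, and 5, or 14.3%, were lower in 3 of 3 pairs, against 21.2%. Of the 11, 5 are Sox4 probe sets that may read the same transcript, so these are not 11 separate observations. Of the 5 that were lower, 3 are Sox9 probe sets, to which the same applies. The median log2 fold change was 0.04 over the Sox probe sets, with 19 above 0 and 16 below, and -0.03 over all probe sets, of which 44.8% lay above 0.

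**Figure D1:**
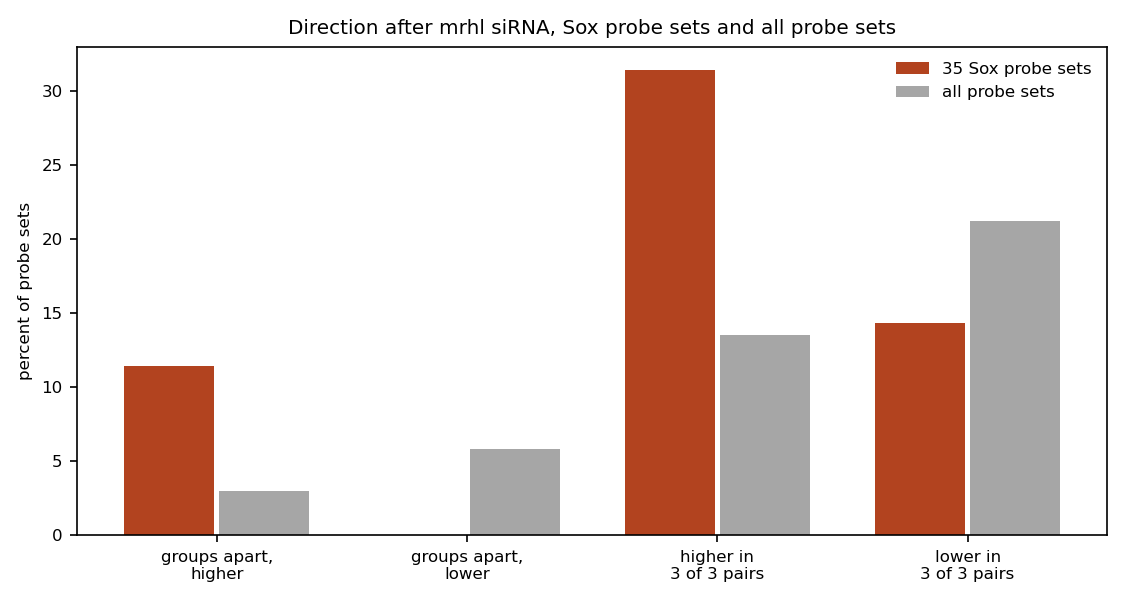
Percent of probe sets (vertical axis) among the 35 Sox probe sets (red bars) and all 45037 probe sets (grey bars), whose groups do not overlap or whose 3 pairs of equal replicate number all point one way. Red stands above grey for both higher classes, at 11.4% against 2.96% and 31.4% against 13.5%, and below it for both lower classes. The genes were chosen with earlier results of these data known, so the bars describe the list and test nothing.

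Levels are deposited log2 values, and each probe set has its own brightness, so a level is compared only between arrays for the same probe set. A probe set counts here as dim when its mean lies under 3.62, the 25th percentile of all probe sets. Of the 35, 26 lay at or above that level, or 74.3% against 75.0% of all probe sets, and 9 below it, and 14 lay at or above the median of 5.23. The dim ones were the only probe sets of Sox2, Sox8 and Sox18, 3 of Sox5 and 1 each of Sox4, Sox6 and Sox12. No detection call was analysed here, so a signal under 3.62 is not shown to lie above background. Errors below are SD over n = 3 arrays or SE of the limma fit, whose median was 0.305 for the Sox probe sets and 0.232 for all probe sets. All arrays measured bulk RNA, in which fewer expressing cells and less RNA per cell cannot be told apart.

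**Figure D2:**
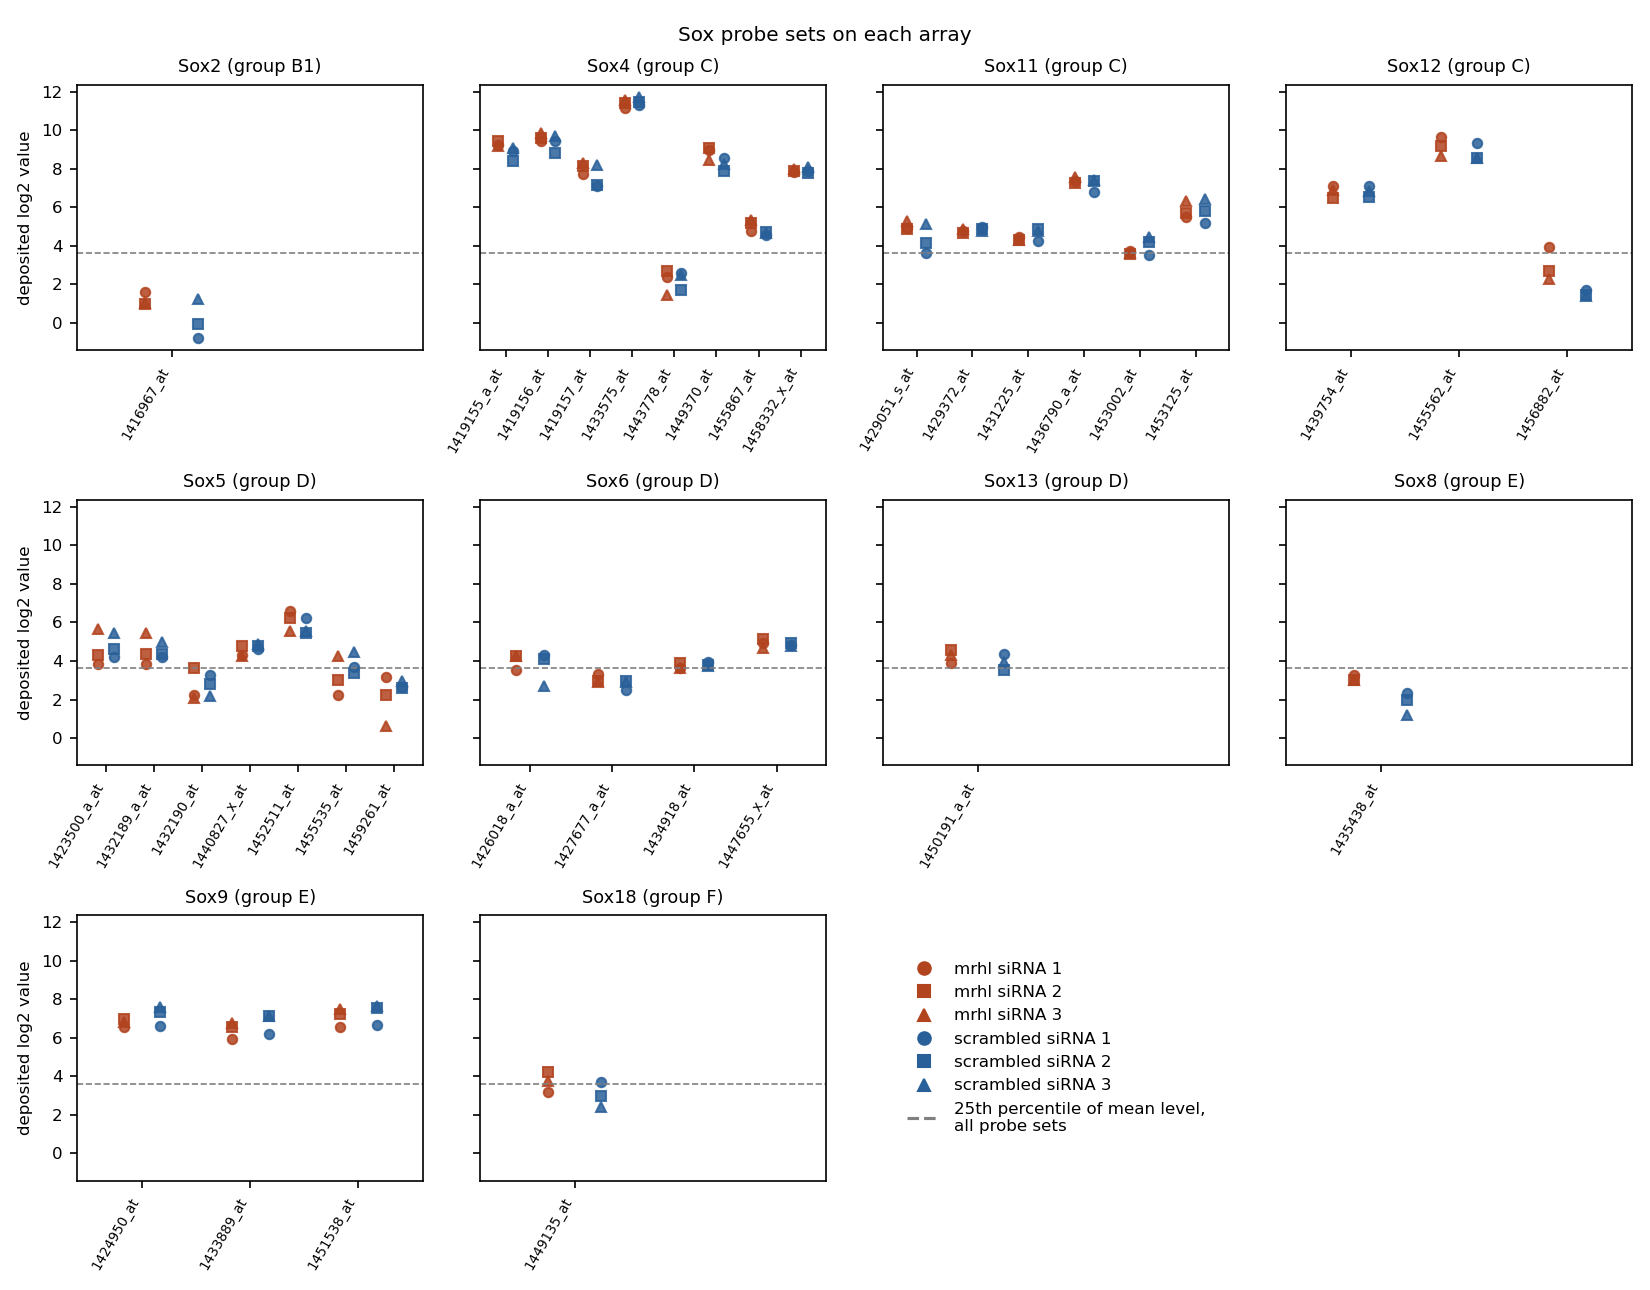
Deposited log2 value (vertical axis) of each Sox probe set on each array, with mrhl siRNA in red to the left and scrambled siRNA in blue to the right, and the replicate number given by the symbol. The dashed line is the 25th percentile of mean level, 3.62; the Sox8 points lie under it with the 3 red points above the 3 blue ones, and the Sox9 points lie well over it with overlapping groups.

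Among the group E genes, Sox8 was higher after mrhl siRNA in every array comparison, at a low signal. Its probe set 1435438_at read 3.25, 2.99 and 2.99 on the 3 mrhl siRNA arrays, against 2.34, 1.96 and 1.21 on the 3 scrambled siRNA arrays. The groups did not overlap, and the 3 values after mrhl siRNA lay close together while those after scrambled siRNA were spread. The means were 3.08 ± 0.15 after mrhl siRNA and 1.84 ± 0.57 after scrambled siRNA (SD, n = 3 each). The difference in log2 value was 1.24 (SE 0.305, 95% interval 0.50 to 1.98), or 2.36-fold, which did not pass the adjustment (limma, adjusted p = 0.978, and 0.674 with the replicate block). The pairs of replicate numbers 1, 2 and 3 differed by 0.91, 1.03 and 1.78. Leaving out each array in turn, the log2 fold change stayed between 0.93 and 1.49. All 6 values lie under 3.62, so the fold is a ratio of dim signals. Among the 11259 probe sets under that level, 4.09% had groups apart in the higher direction, against 2.58% of those at or above it, and the median SE was 0.464 against 0.203.

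Sox9, the other group E gene and the chief Sertoli cell Sox factor, had lower means after mrhl siRNA in all 3 of its probe sets. Probe set 1433889_at read 5.93, 6.55 and 6.75 after mrhl siRNA, against 6.21, 7.12 and 7.12 after scrambled siRNA. Probe set 1424950_at read 6.57, 7.00 and 6.80 after mrhl siRNA, against 6.60, 7.32 and 7.61 after scrambled siRNA. Probe set 1451538_at read 6.58, 7.21 and 7.49 after mrhl siRNA, against 6.64, 7.55 and 7.64 after scrambled siRNA. In each probe set the groups overlapped, and the array of replicate number 1 was the lowest of its group on both sides. The log2 fold changes were -0.40 (SE 0.343), -0.39 (SE 0.292) and -0.18 (SE 0.362), none of which passed (limma, adjusted p from 0.978 to 0.981). All 9 differences within pairs of equal number were negative, from -0.81 to -0.03. They come from 3 probe sets of 1 gene in the same 3 pairs, so they are not 9 separate observations. With the block 1433889_at was the 1 Sox9 probe set at an unadjusted p under 0.05, and its adjusted p was 0.674 (limma). A pair of them, 1424950_at and 1451538_at, carry the same accession in the probe table and so may read the same stretch of transcript, and without mrhl siRNA replicate 1 the value of 1451538_at turned to 0.07.

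Sox8 and Sox9 had differences of opposite sign, with 95% intervals of 0.50 to 1.98 for Sox8 and, for the Sox9 probe set 1433889_at, -1.24 to 0.43. Whether the 2 genes' differences differ was not tested, since they are read by different probe sets at different signal.

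Group C holds Sox4, Sox11 and Sox12, which are broadly expressed in progenitor cells and act as activators. Of its 17 probe sets, 10 had log2 fold changes above 0 and 7 below, with a median of 0.20. Sox4 had 5 of 8 above 0, each of the 5 higher after mrhl siRNA in 3 of 3 pairs, with values from 0.33 to 0.62. For 1419156_at the pair of number 1 was higher by 0.00 after rounding. Probe set 1419155_a_at read 9.22, 9.44 and 9.20 after mrhl siRNA, against 8.89, 8.38 and 9.06 after scrambled siRNA. These groups did not overlap, with a log2 fold change of 0.51 (SE 0.217; limma, adjusted p = 0.978). Probe set 1455867_at read 4.77, 5.20 and 5.34 after mrhl siRNA, against 4.54, 4.71 and 4.64 after scrambled siRNA. Its groups were apart too, by a small margin, with a log2 fold change of 0.47 (SE 0.193; limma, adjusted p = 0.978). Probe set 1449370_at read 8.99, 9.05 and 8.44 after mrhl siRNA, against 8.53, 7.88 and 8.22 after scrambled siRNA. Here the groups overlapped, because replicate 3 after mrhl siRNA lay under replicate 1 after scrambled siRNA, and the log2 fold change was 0.62 (SE 0.253; limma, adjusted p = 0.978).

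Other Sox4 probe sets did not share that direction. Probe set 1433575_at read 11.16, 11.41 and 11.55 after mrhl siRNA, against 11.29, 11.46 and 11.74 after scrambled siRNA. It was lower after mrhl siRNA in 3 of 3 pairs by small amounts, with overlapping groups and a difference of -0.12 (SE 0.189, 95% interval -0.58 to 0.34). Probe set 1458332_x_at had -0.01 (SE 0.146), and the suffix x marks probes that also match other sequences. The dim 1443778_at had -0.09 (SE 0.398), and its pairs ran from -1.03 to 0.97. The accession in the probe table is the same for 1419155_a_at, 1419156_at, 1419157_at and 1449370_at, which gave 0.51, 0.33, 0.54 and 0.62, so 4 of the 5 positive values share a source sequence. In all 4, the largest difference was that of replicate number 2, from 0.79 to 1.17, and that of number 3 was at most 0.22.

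Sox12 was read by 3 probe sets that gave different values. The dim 1456882_at read 3.95, 2.68 and 2.25 after mrhl siRNA, against 1.71, 1.43 and 1.40 after scrambled siRNA. The groups were apart, and the array of number 1 stood highest on both sides. The difference was 1.44 on the log2 scale (SE 0.440, 95% interval 0.37 to 2.52), or 2.72-fold, without passing the adjustment (limma, adjusted p = 0.978). It lay between 0.95 and 1.80 on leaving out each array in turn. Probe set 1455562_at read 9.63, 9.15 and 8.66 after mrhl siRNA, against 9.35, 8.53 and 8.56 after scrambled siRNA. Each pair was higher after mrhl siRNA, by 0.28, 0.62 and 0.10, but the groups overlapped and the log2 fold change was 0.33 (SE 0.338). The third, 1439754_at, had -0.01 (SE 0.243, 95% interval -0.61 to 0.58). The 1.44 therefore comes from the dim probe set alone.

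Sox11, best known from developing neurons, had 3 probe sets above 0 and 3 below. The largest value was that of 1429051_s_at, which read 4.93, 4.85 and 5.29 after mrhl siRNA, against 3.62, 4.14 and 5.14 after scrambled siRNA. The 3 pairs were higher by 1.31, 0.71 and 0.15, and the log2 fold change was 0.73 (SE 0.399; limma, adjusted p = 0.978). Probe set 1453002_at has the same accession and pointed the other way. It read 3.71, 3.57 and 3.60 after mrhl siRNA, against 3.50, 4.20 and 4.47 after scrambled siRNA, a log2 fold change of -0.43 (SE 0.270). In both probe sets the scrambled siRNA arrays were far more spread, with SDs of 0.77 and 0.50, than the mrhl siRNA arrays, with 0.23 and 0.07. The groups overlapped in all 6 Sox11 probe sets. The other 4 had smaller differences, with -0.29 for 1431225_at, -0.07 for 1429372_at, 0.04 for 1453125_at and 0.20 for 1436790_a_at (SE from 0.146 to 0.382).

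**Figure D3:**
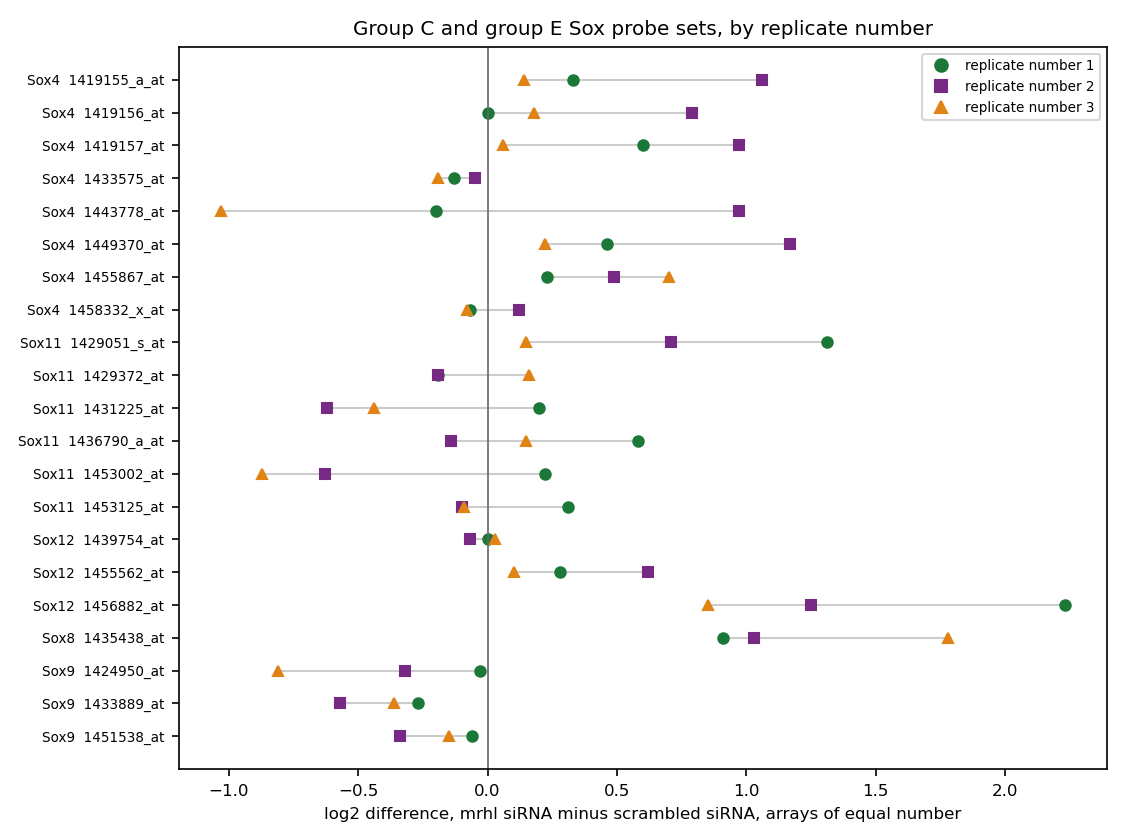
Log2 difference, mrhl siRNA minus scrambled siRNA (horizontal axis), within arrays of equal replicate number for each probe set of the group C and group E genes; the symbol gives the number. The Sox8 differences of 0.91, 1.03 and 1.78 lie above 0. The 9 Sox9 differences, of 3 probe sets in the same 3 pairs, lie below it. The Sox11 probe sets spread over both sides.

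Group D proteins lack a transactivation domain of their own, and Sox5 and Sox6 act beside Sox9 at cartilage genes. Of the 12 group D probe sets, 6 were above 0 and 6 below, with a median of -0.02, and 0 had groups apart, against 8.77% of all probe sets. Sox5 ranged from -0.72 for the dim 1459261_at (SE 0.616) to 0.40 for 1452511_at (SE 0.335), and 2 of its 7 probe sets were above 0. Probe set 1452511_at read 6.58, 6.25 and 5.58 after mrhl siRNA, against 6.22, 5.44 and 5.54 after scrambled siRNA. It was higher in 3 of 3 pairs with overlapping groups, and the array of number 1 was the highest on both sides. The other Sox5 probe sets had -0.67 (1455535_at, dim, lower in 3 of 3 pairs), -0.29 (1440827_x_at), -0.16 (1423500_a_at), -0.11 (1432190_at, dim) and 0.03 (1432189_a_at). Sox6 had 3 probe sets above 0 and 1 below, with -0.08 for 1434918_at, 0.06 for 1447655_x_at, 0.30 for the dim 1427677_a_at and 0.31 for 1426018_a_at. Of these, 1427677_a_at was higher in 3 of 3 pairs, by 0.87, 0.02 and 0.01, so that replicate number 1 made up most of its difference. Sox13 read 3.88, 4.57 and 4.31 after mrhl siRNA, against 4.36, 3.53 and 3.95 after scrambled siRNA. Its groups overlapped at a difference of 0.31 (SE 0.284, 95% interval -0.39 to 1.00).

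Sox2, a factor of pluripotent and neural progenitor cells, and Sox18, a factor of developing endothelium, were each read by a single dim probe set. Sox2 read 1.58, 0.97 and 1.00 after mrhl siRNA, against -0.79, -0.04 and 1.25 after scrambled siRNA. The groups overlapped because replicate 3 after scrambled siRNA lay above replicates 2 and 3 after mrhl siRNA. The log2 difference came to 1.04 (SE 0.526, 95% interval -0.24 to 2.32), and it was 1.60 without scrambled siRNA replicate 3, 0.58 without scrambled siRNA replicate 1 and 0.38 without replicate 1 of both groups. Sox18 read 3.17, 4.25 and 3.76 after mrhl siRNA, against 3.72, 2.97 and 2.41 after scrambled siRNA. Its groups overlapped, the pair of number 1 pointed down by -0.55 and the others up by 1.27 and 1.35, for a mean difference of 0.69 (SE 0.418, 95% interval -0.33 to 1.71).

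**Figure D4:**
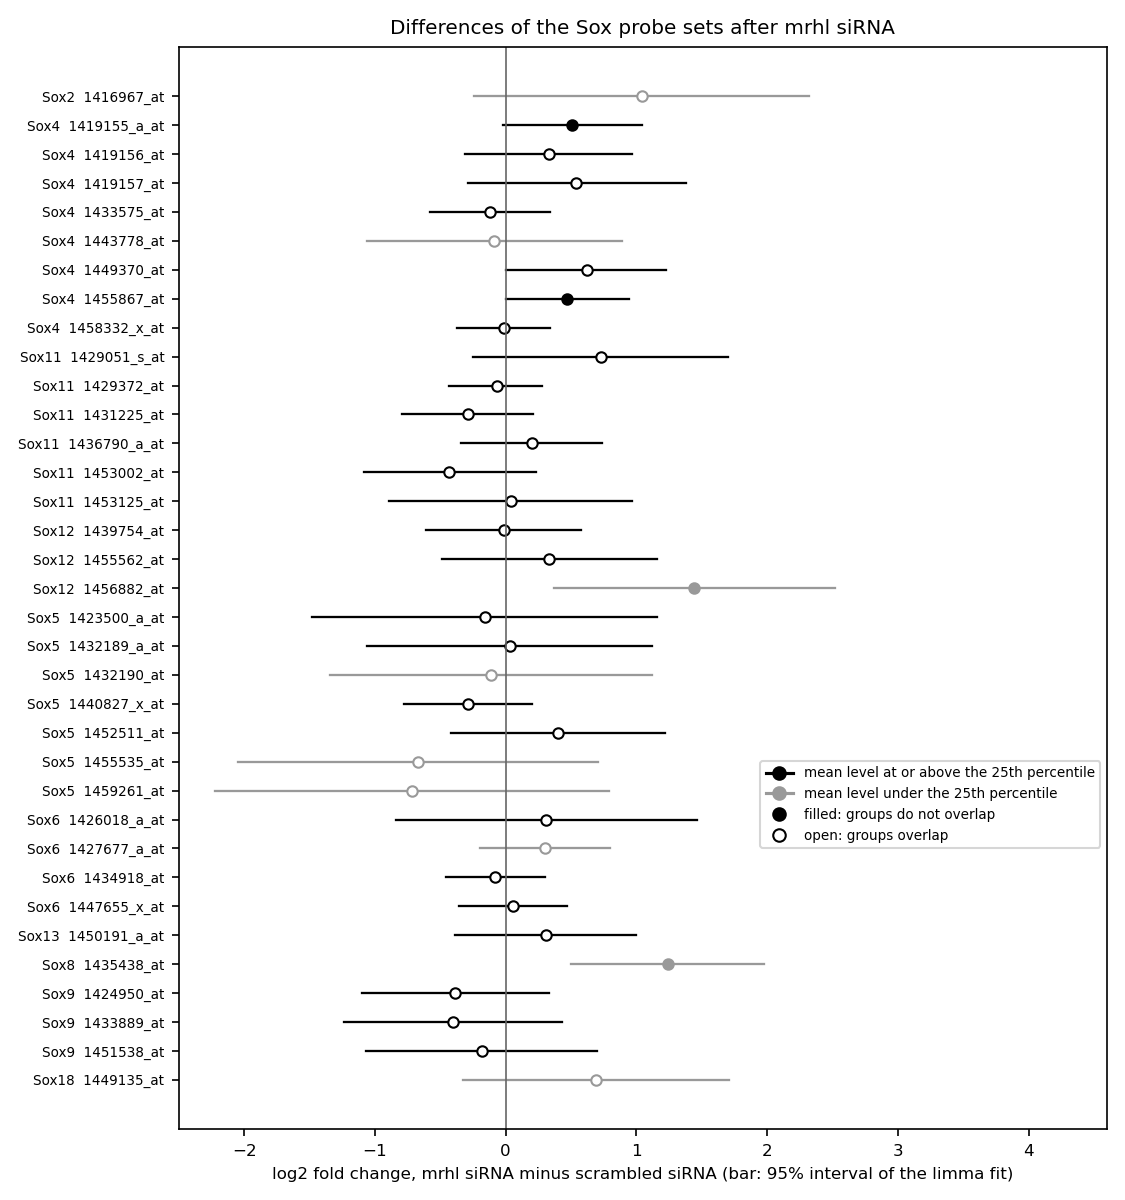
Log2 fold change of each Sox probe set, mrhl siRNA minus scrambled siRNA (horizontal axis), with the 95% interval of the limma fit, not adjusted for the number of probe sets; grey marks probe sets with a mean under 3.62, and filled points mark groups that do not overlap. The intervals of Sox8 (0.50 to 1.98) and the dim Sox12 probe set (0.37 to 2.52) lie above 0, and both are grey.

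In several Sox probe sets the arrays of 1 replicate number stood together at one end of both groups, as in Sox9. The widest range among those at or above 3.62 was that of the Sox5 probe set 1423500_a_at, with 3.87, 4.29 and 5.65 after mrhl siRNA, against 4.23, 4.61 and 5.44 after scrambled siRNA. The array of number 3 was the highest in both groups, and the log2 fold change was -0.16 (SE 0.539). The genes with the most similar profile, among 27442 other probe sets with a single symbol at or above 3.62, were Clic5, Trav9d-3 and Hbegf. After each profile was centred on its own mean, their root mean square differences from it over the 6 arrays were 0.119, 0.129 and 0.137 log2 units.

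Relatives outside the 10 genes gave no call, in a fit where 0 of all probe sets passed. Of the other 9 Sox genes on the array and Sry, each read through its probe set with the highest mean, 6 were above 0 and 4 below, with a median log2 fold change of 0.05. In 0 of them were the groups apart, against 8.77% of all probe sets. The smallest p-values of that list belonged to Sox30, with -1.01 (SE 0.496), and Sox1, with -1.09 (SE 0.681), both dim; the other Sox1 probe set had 1.06. The 3 TCF/LEF genes measured, which share the high mobility group box and carry Wnt signals, had -0.07 for Tcf7l1 (SE 0.255), 0.54 for Tcf7l2 (SE 0.329) and, for Lef1, equal means of 6.03. The other 3 Tcf7l2 probe sets had 0.06 to 0.17. None of these passed (limma, adjusted p of 0.978 or more).

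Genes known to act with or downstream of Sox factors did not pass either (limma, adjusted p of 0.978 or more in each list). In this fit 0 of all probe sets passed, so that tells nothing particular about these genes. Of 10 cartilage genes 5 were above 0 and 5 below, with a median of 0.03. The cartilage matrix gene Matn1 read 2.75, 2.05 and 2.68 after mrhl siRNA, against 3.28, 3.26 and 3.41 after scrambled siRNA, a dim signal whose groups were apart, by -0.83 (SE 0.224), and the collagen gene Col11a2 had 0.35 (SE 0.234). Of 12 sex determination genes around Sox9, 7 were above 0 and 5 below, with a median of 0.04; the dim nuclear receptor gene Nr0b1 had -0.80 (SE 0.337), its groups not overlapping, and Wnt4 had 0.54 (SE 0.340), with equal means of 5.43 in its other probe set. Amh, the Sertoli cell target of Sox9 and Sox8, averaged 5.01 after mrhl siRNA and 4.91 after scrambled siRNA. Of 8 pluripotency genes 6 were above 0 and 2 below, with 0.14 (SE 0.197) for Utf1 and 0.25 (SE 0.380) for the dim Fbxo15. The 4 group C targets and neuronal genes included the microtubule genes Stmn2, with 0.48 (SE 0.238, dim), and Dcx, with -0.21 (SE 0.156). The groups of this Dcx probe set were barely apart, with 4.64 the highest value after mrhl siRNA and 4.65 the lowest after scrambled siRNA. The other 3 Dcx probe sets had -0.84 (dim), -0.64 (dim) and 0.18, with overlapping groups. Of 8 endothelial genes 5 were above 0 and 3 below, with -0.26 (SE 0.161) for the Notch ligand Dll4 (0.04 in its other probe set, dim) and 0.28 (SE 0.198) for the adhesion gene Vcam1. Of 7 meiotic entry genes measured 3 were above 0 and 4 below, with a median of -0.19; the synaptonemal complex gene Sycp3 had -0.52 (SE 0.204) with groups apart, and the dim Hormad1 had -1.06 (SE 0.482).

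The labelled cell type was checked against marker genes, each read through its probe set with the highest mean. Of 9 spermatogonial markers, 7 lay at or above 3.62 and 3 above the median level. Those 3 were Uchl1, Id4 and Gfra1, with mean levels of 7.49, 6.35 and 5.91. The germ cell genes Ddx4, at 2.43 after mrhl siRNA and 2.31 after scrambled siRNA, and Dazl, at 3.39 and 3.31, lay below 3.62. Of 11 Sertoli cell markers, 10 lay at or above 3.62, with Dmrt1 below it, and 6 above the median level. Wt1 averaged 10.84 after mrhl siRNA and 10.69 after scrambled siRNA, while Fshr and Cldn11 had mean levels of only 3.72 and 3.78. The summed signal of the Sertoli markers, as log2, ran from 12.50 to 12.81 after mrhl siRNA and from 12.72 to 12.91 after scrambled siRNA, and that of the spermatogonial markers from 8.55 to 9.00 and from 8.58 to 8.94. It ran from 6.49 to 6.91 and from 6.40 to 6.94 for the 4 Leydig markers measured, from 12.85 to 13.24 and from 12.26 to 13.09 for 5 myoid and fibroblast markers, from 6.42 to 6.78 and from 6.65 to 6.85 for 5 endothelial markers, and from 7.23 to 7.24 and from 7.28 to 7.34 for the 3 glial markers measured, after mrhl siRNA first in each. Such a sum mostly follows the brightest genes of its list. These were Clu among the Sertoli markers, with a mean level of 12.22, and Col1a1 among the myoid ones, with 12.35. The ranges of the 2 groups did not overlap for the glial markers, by a small margin, and overlapped for the other lists. Read singly, 0 of the 3 glial markers had groups apart. Of all probe sets 8.77% were apart, and no such share was computed for sums. No gene of these lists was called (limma, adjusted p of 0.978 or more), in a fit that called 0 of all probe sets. By smallest p-value, the log2 fold changes were -0.39 for Kit and 0.43 for Stra8 of the spermatogonial markers. They were -0.63 (SE 0.271, groups apart, and -0.02 with overlapping groups in its other probe set) for Dhh and 0.25 for Gata4 of the Sertoli markers. Of the Leydig markers, Cyp11a1 had 0.38 and the dim Cyp17a1 had 0.35. Zbtb16 of the spermatogonial markers had 0.14 (SE 0.138), with groups apart by a small margin. It was the only gene of any list apart in the higher direction, in which 2.96% of all probe sets were apart. All 5 myoid and fibroblast markers were above 0, with a median of 0.31, and each pair was higher for Col1a1 and Acta2. The other Col1a1 probe set had 0.41, with 3 of 3 pairs higher. The other Acta2 probe sets had 0.03, with 1 of 3 pairs higher, and 0.24 (dim), with 2 of 3. In the other lists, the markers above 0 were 5 of 9 spermatogonial, 5 of 11 Sertoli, 2 of 4 Leydig, 3 of 5 endothelial and 1 of 3 glial. The values were 0.31 for Col1a1 and 0.37 for Acta2 of the myoid, -1.85 (SE 0.566, dim, groups apart) for Pecam1 and -0.29 for Kdr of the endothelial, and -0.26 for S100b and -0.07 for Erbb3 (0.24 in its other probe set, dim) of the glial markers. Ddx4, Dazl, Zbtb16, Uchl1, Id4, Gfra1, Dmrt1, Wt1, Clu, Fshr and Cldn11, like Amh and Lef1, were singled out after their values were seen. The part of these markers in the Sox values was not tested.

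The genes beside Sox8 were also read, chosen after its values were seen. In the order of protein-coding genes of GRCm38.p6, Tekt4 and Sstr5 come before Sox8 and Lmf1 and Gng13 after it. Their 6 probe sets had log2 fold changes from -0.23 to 0.49, and in 0 of them were the groups apart, against 8.77% of all probe sets. With 6 probe sets, 0 cannot be told from that share. The RNAs Sox2ot and Sox6os, which overlap Sox2 and Sox6, had 0.68 (SE 1.46) and 0.06 (SE 0.279), both with overlapping groups. The Sox2ot probe set was dim, with a mean level of 0.01 and a range of 4.49 over the 6 arrays.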

How the data were processed

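RNA of 6 cultures was measured, each on a single-colour Affymetrix array of its own. The authors deposited log2 values, 1 per probe set and array; the scale was read from their range, and GCOS and PLIER are the tools per the submitters' processing notes, whose settings and versions were not given in the sources used here. Array medians differed by at most 0.11, and values were used as deposited. A further 64 control rows of the 45101 were left out. The probe table gave 1 symbol to 34945 probe sets, several to 932, and did not list 9160. Groups came from the sample titles.

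All 45037 probe sets were fitted with limma 3.58.1 (R 4.3.3) for the difference of mrhl siRNA and scrambled siRNA cultures, p-values were adjusted by Benjamini-Hochberg over the whole array, and no filter was set on low values, since dim probe sets were to be included. The fit was tested on simulated data. Single values rest on 3 arrays a group, and that number limits the precision. The labels call the replicates biological.

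The groups share replicate numbers. Deviations from the group means correlated at 0.534, 0.201 and 0.567 for equal numbers over the 33778 probe sets at or above the 25th percentile, and from -0.518 to 0.0684 for unequal ones. Over all probe sets the equal-number values were 0.187, 0.0666 and 0.203. The limit was 0.1. The numbers were read as pairs from the brighter probe sets, since the design text speaks of independent experiments, and the evidence for number 2 is weak.

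Every probe set of the 10 genes was to be named, and up to 2 genes of each list by smallest p. The genes and lists were chosen with earlier results of these data known. Alternatives were quantile normalization, array medians set to 0, filters at the 25th percentile and the median, weights per array, the replicate block, a variance prior that is trended and robust, and each array left out in turn; that prior joined with the block, and leaving out both arrays of number 1, were added after seeing the data. Promoter windows were checked for strand by the position of the TATA box motif. Figures were drawn with matplotlib 3.10.9.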

Additional observations from a re-analysis of the deposited data

How the results depend on the processing

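Over the 35 Sox probe sets and all alternatives, 0 values passed an adjusted p of 0.05 (limma, smallest adjusted p of a Sox probe set 0.264). The sign was kept by 22 probe sets in each alternative run for them, and turned in at least 1 by 13. The filters, the replicate block and the trended and robust variance leave each log2 fold change as it was. They could therefore not turn a sign. Of the 35 probe sets, 26 had a value under the filter at the 25th percentile and 14 under that at the median. The only probe sets of Sox8, Sox2 and Sox18 had none under either filter, and that of Sox13 none under the filter at the median. Over all probe sets, the number past an adjusted p of 0.05 was 0 in every alternative but the replicate block with trended and robust variance (limma), which gave 2, of Col3a1 and Smarca4, named after their values were seen. The median log2 fold change of the Sox probe sets, 0.0396 as reported, ran from 0.0356 to 0.1804 on leaving out each array. The limit of the data is the dim signal of the only Sox8, Sox2 and Sox18 probe sets and the number of arrays.

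Counts moved with the setting. At an unadjusted p under 0.05 over all probe sets, 1758 became 3241 with the replicate block, 5045 with the block and the trended and robust variance, 1163 with the filter at the 25th percentile and 779 with that at the median, fewer probe sets being tested in both, and ran from 1466 to 2667 on leaving out each array, the highest without mrhl siRNA replicate 3. Of the Sox probe sets, 2 became 4 with quantile normalization (11.4% against 4.09% of all probe sets), with the replicate block (against 7.20%) and with the trended and robust variance (against 3.43%). They became 12 with the block and that variance model together (34.3% against 11.2%) and 6 without replicate 1 of both groups (17.1% against 3.88%), and ran from 2 to 7 on leaving out each array, against 3.26% to 5.92% of all probe sets. The 4 Sox probe sets with groups apart became 5 to 13 on leaving out each array and 16 without replicate 1 of both groups, where fewer arrays part more easily: 33.0% of all probe sets were then apart. The highest, 13, was without scrambled siRNA replicate 1, or 37.1% against 23.4% of all probe sets. The lowest, 5, was without scrambled siRNA replicate 2, or 14.3% against 17.4%. Without scrambled siRNA replicate 3 the share was 22.9% against 16.1%. Without mrhl siRNA replicate 1, 2 or 3 it was 17.1%, 17.1% or 25.7%, against 16.6%, 14.5% or 25.2%. The replicate block moved no Sox probe set past an adjusted p of 0.05 (limma); at an unadjusted p under 0.05 it added 1 of Sox4 and 1 of Sox9.

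These values changed sign, and the cause was not tested. Under quantile normalization Sox4 1458332_x_at had 0.0135 and Sox12 1439754_at 0.0158. With array weights Sox4 1443778_at had 0.0034, Sox11 1453125_at -0.1655, Sox12 1439754_at 0.0002, Sox5 1432189_a_at -0.1824 and Sox5 1432190_at 0.0878. Without replicate 1 of both groups Sox4 1458332_x_at had 0.0182, Sox11 1453125_at -0.0971, Sox5 1432190_at 0.3552 and Sox6 1434918_at 0.0366. On leaving out each array the values ran from -0.2241 to 0.0002 for Sox4 1433575_at, from -0.3518 to 0.2832 for Sox4 1443778_at, from -0.0804 to 0.0608 for Sox4 1458332_x_at, from -0.0062 to 0.3058 for Sox11 1436790_a_at, from -0.2721 to 0.3552 for Sox11 1453125_at, from -0.1643 to 0.1674 for Sox12 1439754_at, from -0.6840 to 0.2053 for Sox5 1423500_a_at, from -0.4127 to 0.3850 for Sox5 1432189_a_at, from -0.6112 to 0.1826 for Sox5 1432190_at, from -0.1824 to 0.6110 for Sox6 1426018_a_at, from -0.0575 to 0.1804 for Sox6 1447655_x_at and from -0.5010 to 0.0746 for Sox9 1451538_at.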

Other observations

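In the fit that joins the replicate block with a trended and robust variance model, an alternative added with the data in view, 12 of the 35 Sox probe sets, or 34.3%, stood at an unadjusted p under 0.05, against 11.2% of all probe sets. They were 5 of Sox4, 2 each of Sox12 and Sox9, and 1 each of Sox5, Sox8 and Sox11. Those of Sox9 were lower after mrhl siRNA and the other 10 higher. The genes were chosen with earlier results of these data known, so the share is a description and no test. The smallest adjusted p among them was that of Sox4 1449370_at, with a log2 fold change of 0.62 (limma, adjusted p = 0.264), and Sox8 had an adjusted p of 0.423 (limma). The pairs behind each value are those described for the single genes, and 4 of the 5 Sox4 probe sets share an accession.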
